A study of Mus musculus with 20 samples.

Results

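Isx and 8 genes of vitamin A handling were followed across 5 groups of mouse colon, as the level of each gene in each mouse. The 9 genes were Isx, Bco1, Scarb1, Dhrs9, Rbp2, Aldh1a1, Aldh1a2, Aldh1a3 and Stra6. They were chosen by name, with the known repression of Bco1 and Scarb1 by Isx and with the shift of Isx and Dhrs9 in colitis or under cyclosporine already in view. All 9 had values, on 10 probe sets in all (1 each, and a pair for Rbp2), and all 9 lay above the level used to leave out dim genes on every array, so that they were 9 of the 16739 genes tested and of 21423 gene symbols on the array. The values came from 20 arrays, each of the total RNA of the middle colon of 1 female C57BL/6JOlaHsd mouse of about 11 weeks, in 5 groups of 4 mice. Colitis was brought on with 3% dextran sulphate sodium (DSS), an agent that injures the colon lining, given for 5 days in drinking water. The cyclosporine colitis mice received DSS and oral cyclosporine A, a calcineurin inhibitor, at 25 mg/kg daily from day 1 to day 15. The probiotic colitis mice received DSS and, by stomach tube before and during it, a mixture of the bacterial strains L930BB and IM386, and the untreated colitis mice received DSS with saline alone. The probiotic healthy mice received the mixture without DSS, and the untreated healthy mice received saline alone. No healthy mice received cyclosporine, so its differences in colitis have no counterpart without DSS. Mice were kept at 5 per cage, and the cage of each mouse is not given in the sources used here.

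Vitamin A reaches the gut as retinyl esters and as carotenoids. Scarb1, a scavenger receptor, brings carotenoids into the enterocyte, and Bco1 splits beta-carotene into retinal. Rbp2 binds retinol and retinal inside the enterocyte, Dhrs9 is a short-chain dehydrogenase that can oxidise retinol to retinal, and the 3 Aldh1a enzymes oxidise retinal to retinoic acid, which acts through nuclear receptors. Stra6 takes up retinol from its plasma carrier. Isx is a homeodomain repressor of the intestine that is induced by retinoic acid and in turn represses Bco1 and Scarb1, which closes a feedback loop on vitamin A production. Most of what is known of this loop comes from the small intestine.

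The DNA just before the start of 4 of these genes is shown because Isx and Dhrs9 had the widest spread of levels over the mice, Bco1 is the target of Isx, and Rbp2 passed the most tests below. Each line is the 250 bases that end at the base before the RefSeq start used in the promoter table (assembly GRCm38.p6, plus strand, 5′ to 3′), and capitals mark the nuclear receptor core motif AGGTCA, which reads TGACCT when it lies on the minus strand. The windows are chr8:74872924-74873173 for Isx, chr2:69380212-69380461 for Dhrs9, chr8:117095615-117095864 for Bco1 and chr9:98490287-98490536 for Rbp2.
Isx: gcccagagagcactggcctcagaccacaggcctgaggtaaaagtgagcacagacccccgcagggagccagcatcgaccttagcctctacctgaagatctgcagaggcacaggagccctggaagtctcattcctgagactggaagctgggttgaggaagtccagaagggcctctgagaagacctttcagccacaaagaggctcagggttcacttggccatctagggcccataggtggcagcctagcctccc
Dhrs9: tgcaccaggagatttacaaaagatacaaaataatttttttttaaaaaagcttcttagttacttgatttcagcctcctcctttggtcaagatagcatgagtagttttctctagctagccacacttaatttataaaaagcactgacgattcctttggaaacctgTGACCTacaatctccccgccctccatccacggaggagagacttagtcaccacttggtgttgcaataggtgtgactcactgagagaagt
Bco1: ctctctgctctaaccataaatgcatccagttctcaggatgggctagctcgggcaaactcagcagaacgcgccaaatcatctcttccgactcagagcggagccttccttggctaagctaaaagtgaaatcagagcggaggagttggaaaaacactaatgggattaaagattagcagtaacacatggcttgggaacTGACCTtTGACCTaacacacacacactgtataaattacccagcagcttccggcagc
Rbp2: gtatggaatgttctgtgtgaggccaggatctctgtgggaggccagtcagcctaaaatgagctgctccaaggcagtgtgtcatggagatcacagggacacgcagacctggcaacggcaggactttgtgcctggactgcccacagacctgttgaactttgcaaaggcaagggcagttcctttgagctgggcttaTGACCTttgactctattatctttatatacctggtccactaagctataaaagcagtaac
Windows of this length were found for 7 of the 9 genes, 11 windows in all, and were searched on both strands. The motif begins 88 bases before the start in Dhrs9 and 58 bases before it in Rbp2. In Bco1 it occurs as a direct repeat with 1 base between the copies, AGGTCANAGGTCA, which begins 56 bases before the start on the minus strand and contains both of that window's single copies. Over all 32851 RefSeq windows of the same length, 14% held the motif (4607 windows) and 0.0335% held the direct repeat (11 windows). Of the homeodomain words searched, TAATTA (4.84% of all windows) matched none of the 11 windows and CAATAAA (4.2% of all windows) matched 1 window of Stra6. The Isx window held none of these motifs. A match shows the letters alone.

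The arrays were alike in scale, with medians over named probe sets between 6.57 and 6.63 on the log2 scale. Any pair of them correlated at 0.926 to 0.993 over all tested genes. Of the spread between arrays, 55.9% lay on a first principal component that set the untreated and probiotic colitis arrays against the rest. The arrays of 3 mice, picked after seeing the data, had the lowest mean correlation with the other arrays of their own groups. They were probiotic colitis mouse 8 (0.977), untreated colitis mouse 6 (0.976) and untreated healthy mouse 2 (0.984). Untreated colitis mice 7 (0.978) and 5 (0.979) lay close to mouse 6 in this measure. Results that rest on the 3 arrays are also given without them. The tissue carried the markers of colon epithelium: Epcam averaged 11.86 to 12.01 over the 5 groups, and the surface colonocyte gene Car1 averaged 12.83 ± 0.11 in untreated healthy mice (SD, n = 4). Of 12 proximal small intestine genes 9 were above the level used to leave out dim genes, and their mean ran from 6.15 to 6.65 over the 20 mice. The members of that list differed. Among them, and named after their values were seen, group means were 8.60 to 9.41 for the sugar transporter Slc5a1 and 5.45 to 5.64 for lactase, Lct. Levels are log2 values of a probe set, so they are compared between mice and not between genes.

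Isx was highest in untreated colitis. In the 4 untreated colitis mice its log2 level was 8.60, 9.02, 9.13 and 8.53, against 6.77, 6.40, 6.48 and 6.33 in the 4 untreated healthy mice. Every colitis mouse of this pair of groups lay above every healthy mouse, and the difference was 2.33 ± 0.24 (SE), or 5.02-fold. In cyclosporine colitis the levels were 6.47, 6.22, 6.74 and 7.20, all below the untreated colitis mice, and the difference from untreated colitis was -2.16 ± 0.24, or 4.48-fold lower. The cyclosporine colitis mice overlapped with the untreated healthy mice, from whom they differed by 0.16 ± 0.24. In probiotic colitis the levels were 8.32, 8.13, 7.94 and 7.06, against 6.23, 5.75, 6.45 and 6.29 in probiotic healthy mice. The order of the group means was untreated colitis, probiotic colitis, cyclosporine colitis, untreated healthy and probiotic healthy. Probiotic and untreated colitis did not overlap. Probiotic and cyclosporine colitis overlapped by probiotic colitis mouse 8 alone, and the last 3 groups in that order each overlapped with their neighbour. The differences of Isx and Dhrs9 are descriptions without a test in every comparison, since the levels of these genes helped to choose them.

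Dhrs9, the dehydrogenase, had the largest difference of the 9 genes between untreated colitis and untreated healthy mice. Its levels were 9.63, 10.22, 10.15 and 10.30 in untreated colitis, against 8.48, 6.39, 6.10 and 6.06 in untreated healthy mice. The groups did not overlap, and the difference was 3.32 ± 0.43, or 9.97-fold. Untreated healthy mouse 2 stood well above the other mice of its group, and without the 3 arrays that stood apart the difference was 3.84. In probiotic colitis the levels were 10.28, 10.08, 10.14 and 9.22, against 7.13, 6.15, 6.75 and 6.58 in probiotic healthy mice, a difference of 3.28 ± 0.43. Cyclosporine colitis lay between, at 8.53, 7.95, 8.97 and 9.60. These 4 mice were all below the untreated colitis mice, by 1.31 on average (a log2 difference of -1.31 ± 0.43). Their mean was also above that of untreated healthy mice by 2.00 ± 0.43, with an overlap through untreated healthy mouse 2. For Dhrs9, 3 of the 4 untreated healthy mice lay below every cyclosporine colitis mouse, whereas for Isx the ranges of the same 2 groups ran through each other.

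**Figure D1:**
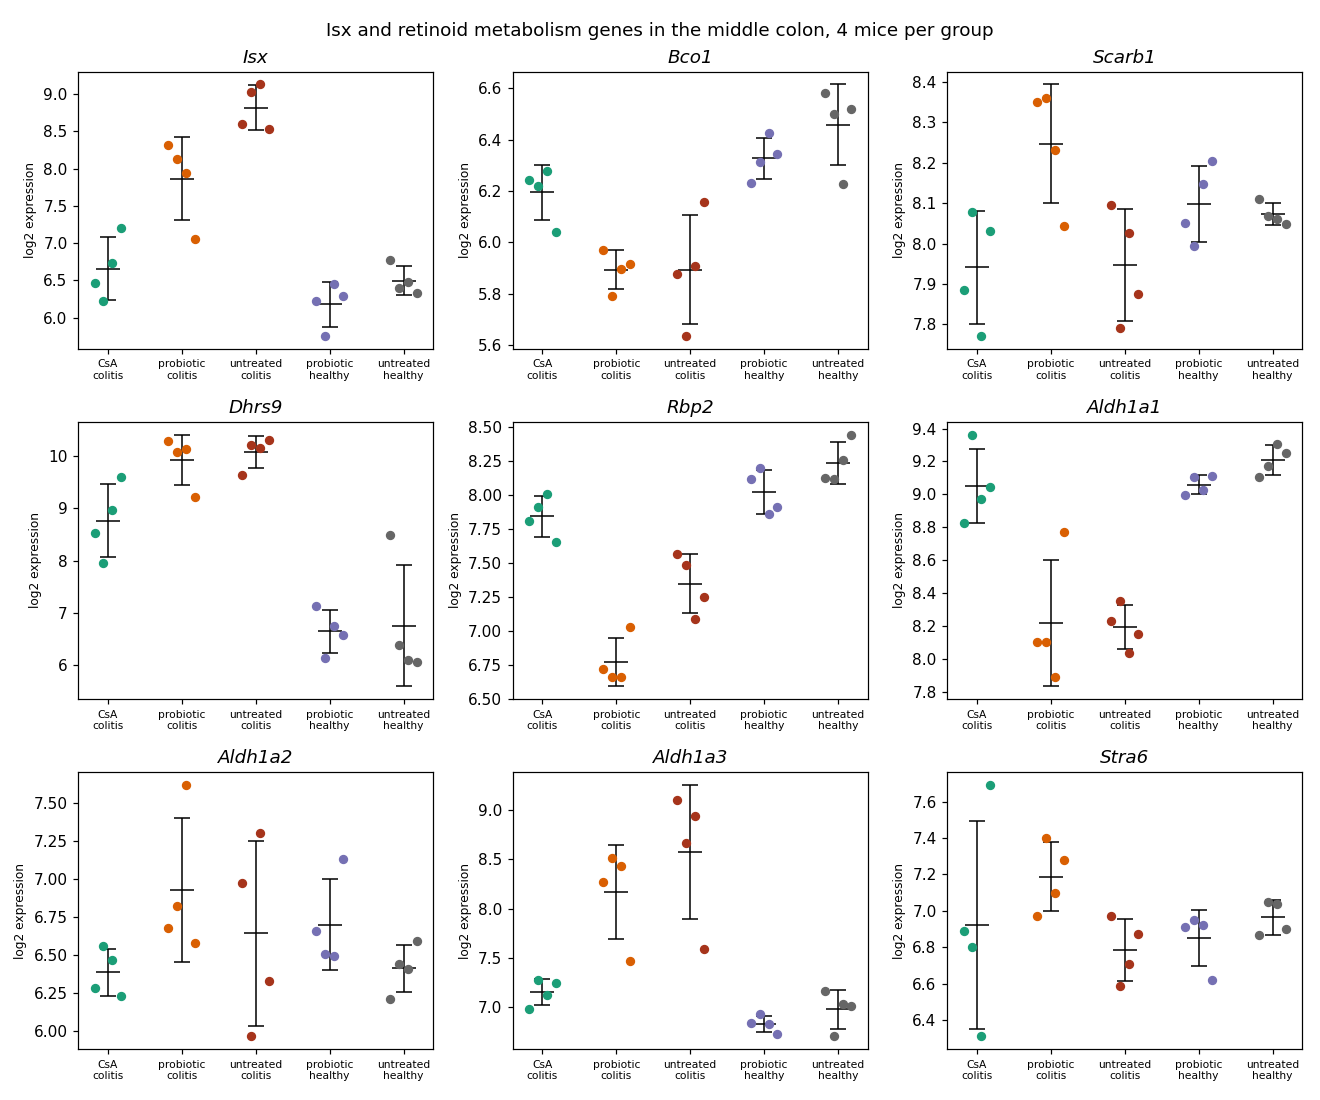
Log2 expression of each of the 9 genes (vertical axes, a scale per panel) in cyclosporine colitis, probiotic colitis, untreated colitis, probiotic healthy and untreated healthy mice, with 1 point per mouse and a black bar for the mean with its SD (n = 4). Isx reached 8.53 to 9.13 in untreated colitis and stayed at 6.22 to 7.20 in cyclosporine colitis, and a single untreated healthy mouse stood at 8.48 for Dhrs9.

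Of the 3 enzymes that make retinoic acid, Aldh1a3 was higher and Aldh1a1 lower in colitis, and Aldh1a2 overlapped between groups. Aldh1a3 stood at 9.11, 8.67, 8.94 and 7.60 in untreated colitis, against 7.17, 6.70, 7.04 and 7.01 in untreated healthy mice. The groups did not overlap, and the difference was 1.60 ± 0.25, or 3.03-fold. Aldh1a3 in cyclosporine colitis lay at 6.98, 7.27, 7.12 and 7.24, below every untreated colitis mouse (difference -1.42 ± 0.25) and with a mean 0.18 ± 0.25 above that of untreated healthy mice. For Aldh1a1 the levels were 8.23, 8.36, 8.04 and 8.16 in untreated colitis, against 9.11, 9.17, 9.31 and 9.25 in untreated healthy mice. That difference was -1.02 ± 0.14, again with no overlap. Cyclosporine colitis mice had 8.83, 9.36, 8.98 and 9.04 for Aldh1a1, all above the untreated colitis mice (difference 0.86 ± 0.14) and overlapping with the untreated healthy mice. Aldh1a2, the form known from gut dendritic and stromal cells, ranged from 5.96 to 7.30 in untreated colitis and from 6.21 to 6.59 in untreated healthy mice. Its difference of 0.23 ± 0.24 was no larger than its error. Its highest level over all 20 mice, 7.62, was in probiotic colitis mouse 7, which also had the highest mean of 6 mesothelium markers (6.80), and the part of such tissue in this value was not tested.

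Bco1, the beta-carotene cleaving enzyme and a target of Isx, stood at 5.88, 5.63, 5.91 and 6.16 in untreated colitis, against 6.58, 6.50, 6.23 and 6.52 in untreated healthy mice. The difference was -0.56 ± 0.10, with no overlap. In cyclosporine colitis its levels were 6.24, 6.22, 6.28 and 6.04, which overlapped with both untreated groups and lay 0.30 ± 0.10 above untreated colitis. Scarb1, the carotenoid receptor and the other known target of Isx, had 8.10, 7.79, 8.03 and 7.88 in untreated colitis, against 8.11, 8.07, 8.06 and 8.05 in untreated healthy mice, and the groups overlapped (difference -0.12 ± 0.09). Under cyclosporine it was at 7.89, 8.08, 7.77 and 8.03 in colitis, a difference of -0.01 ± 0.09 from untreated colitis, with a 95% interval of -0.18 to 0.17.

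The carrier Rbp2 was lower in colitis. Its levels were 7.56, 7.48, 7.09 and 7.25 in untreated colitis, against 8.13, 8.12, 8.26 and 8.44 in untreated healthy mice, a difference of -0.89 ± 0.12 with no overlap. The cyclosporine colitis mice had 7.81, 7.91, 8.01 and 7.65, all above the untreated colitis mice by a mean of 0.50 ± 0.12 and all below the untreated healthy mice by a mean of 0.39 (log2 difference -0.39 ± 0.12). A second, dimmer probe set of Rbp2 had the same sign with smaller differences, -0.26 for untreated colitis minus untreated healthy and 0.11 for cyclosporine colitis minus untreated colitis. On that probe set untreated colitis (5.54 to 5.87), cyclosporine colitis (5.56 to 6.07) and untreated healthy mice (5.76 to 6.24) all overlapped with each other. Cyclosporine colitis differed from untreated healthy mice by -0.15 there. The separations of these groups thus held on the brighter probe set alone. Stra6, the retinol uptake receptor, ranged from 6.59 to 6.97 in untreated colitis and from 6.87 to 7.05 in untreated healthy mice, and these groups overlapped.

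Counted over the 9 genes, untreated colitis lay wholly above untreated healthy tissue for 3 (Isx, Dhrs9 and Aldh1a3) and wholly below it for 3 (Bco1, Rbp2 and Aldh1a1), and 3 overlapped. Rbp2 is counted in this paragraph by its brighter probe set, since these groups overlapped on the dimmer one. Over all tested genes the groups did not overlap upward for 10.6% and downward for 14% in this comparison, which the choice of genes used, so nothing is read from the counts. Cyclosporine colitis lay wholly above untreated colitis for 2 genes (Rbp2 and Aldh1a1) and wholly below it for 3 (Isx, Dhrs9 and Aldh1a3), against 8.11% and 6.86% of all genes. Relative to untreated healthy mice it lay wholly below for Rbp2, on its brighter probe set, and overlapped for the other 8, against 8.19% of all genes wholly below and 6.55% wholly above. Without the 3 arrays unlike their groups, the differences of untreated colitis from untreated healthy mice were 2.35 for Isx, 1.63 for Aldh1a3, -0.44 for Bco1, -0.97 for Rbp2 and -1.10 for Aldh1a1. Those of cyclosporine colitis from untreated colitis were -2.09 for Isx, -1.27 for Dhrs9 and -1.39 for Aldh1a3, so the directions stood. The comparisons of untreated colitis with healthy and with cyclosporine share the untreated colitis arrays, so an unusual level in those 4 mice enters both with opposite sign.

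**Figure D2:**
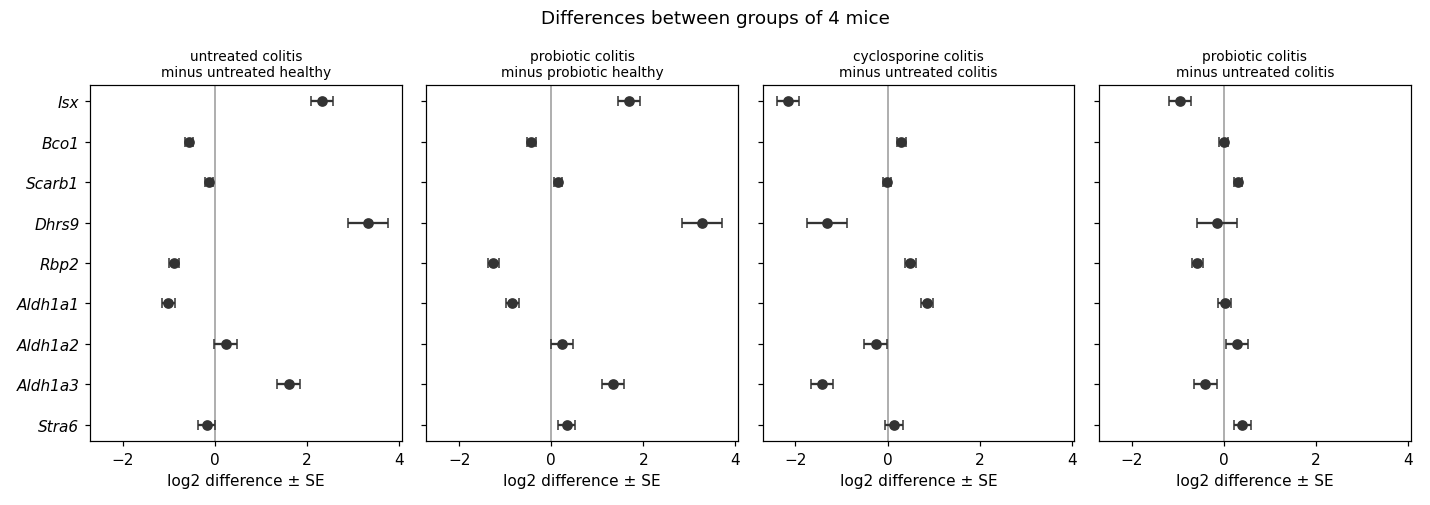
Log2 differences with their standard errors from the fit (horizontal axis, n = 4 mice per group) for the 9 genes in untreated colitis minus untreated healthy, probiotic colitis minus probiotic healthy, cyclosporine colitis minus untreated colitis, and probiotic colitis minus untreated colitis. Isx was at 2.33, 1.68, -2.16 and -0.96 in the 4 panels, and Scarb1 lay between -0.12 and 0.30.

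Other tissue markers moved in the same comparisons. Counts here are by limma with Benjamini-Hochberg adjusted p under 0.05. Of all tested genes, 26.1% were called in untreated colitis against untreated healthy mice and 13.2% in cyclosporine colitis against untreated colitis. Of 8 surface colonocyte genes, 4 fell and 0 rose in the first comparison, with a median difference of -0.81. In the second, 4 rose and 0 fell, with a median of 0.55. The mean level of the list ran from 11.43 to 11.51 in cyclosporine colitis, from 10.80 to 11.26 in untreated colitis and from 11.47 to 11.99 in untreated healthy mice. Of 8 pan-epithelial genes, 2 fell in untreated colitis, with a median of -0.11, and 0 were called under cyclosporine. Of 6 neutrophil genes, 5 rose in untreated colitis, with a median of 1.98, and 2 fell under cyclosporine, with a median of -1.86. Of 7 tested Hox genes of the posterior gut, 5 fell in untreated colitis (median -0.75) and 4 rose under cyclosporine (median 0.61). The part of these shifts in the levels of the 9 genes was not tested, and in bulk tissue fewer cells of a type and less RNA per cell cannot be told apart.

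The mice on the probiotic give a second look at colitis, with arrays that neither the untreated comparison nor cyclosporine used. Isx and Dhrs9 are described above, at 1.68 ± 0.24 and 3.28 ± 0.43 with no overlap. Of the other 7 genes, Aldh1a3 rose and Rbp2, Aldh1a1 and Bco1 fell in probiotic colitis against probiotic healthy mice, and Scarb1, Aldh1a2 and Stra6 were not called. Over all tested genes 13.6% rose and 16.1% fell here, and 29.7% were called in either direction.

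Aldh1a3 had 8.27, 8.52, 8.43 and 7.47 in probiotic colitis, against 6.84, 6.93, 6.82 and 6.73 in probiotic healthy mice. It rose by 1.34 ± 0.25 (adjusted p = 0.000381), with no overlap. Rbp2 had 6.72, 6.66, 6.66 and 7.03 in probiotic colitis, against 8.12, 8.20, 7.86 and 7.91 in probiotic healthy mice. Its change of -1.25 ± 0.12 (adjusted p = 7.71e-07) was the largest fall of the 7. Aldh1a1 had 8.11, 8.10, 7.89 and 8.77 in probiotic colitis, against 8.99, 9.10, 9.03 and 9.11 in probiotic healthy mice (difference -0.84 ± 0.14, adjusted p = 0.000152). Bco1 had 5.97, 5.79, 5.90 and 5.92 in probiotic colitis, against 6.23, 6.31, 6.42 and 6.34 in probiotic healthy mice, a smaller change of -0.43 ± 0.10 (adjusted p = 0.00181). Without the 3 arrays unlike their groups the differences were 1.58 for Aldh1a3, -1.34 for Rbp2, -1.03 for Aldh1a1 and -0.44 for Bco1, all still called. In each of these 4 genes the mice of the 2 groups were fully separated, as they were for 31.1% of all genes. Scarb1 averaged 8.25 ± 0.15 in probiotic colitis and 8.10 ± 0.09 in probiotic healthy mice (SD, n = 4 each), and its difference of 0.15 ± 0.09 was not called (adjusted p = 0.210). Without the 3 arrays that stood apart it was 0.22 with an adjusted p of 0.0488, so the call differed with these arrays left out. Aldh1a2 (0.23 ± 0.24, adjusted p = 0.532) and Stra6 (0.34 ± 0.19, adjusted p = 0.195) were not called. Stra6 was also fully separated, at 6.97 to 7.40 in probiotic colitis against 6.62 to 6.95 in probiotic healthy mice. Surface colonocyte markers moved here too, with 5 of 8 down, 1 up and a median of -1.10, and their part was not tested.

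The probiotic itself was compared in colitis and in healthy mice. These comparisons share the untreated arrays with those that chose Isx and Dhrs9, so both of these genes are described and the other 7 tested. In probiotic colitis the Isx levels of 7.06 to 8.32 lay below the 8.53 to 9.13 of untreated colitis, with a difference of -0.96 ± 0.24. The Isx difference was -0.62 without the 3 arrays that stood apart, and -1.11 to -0.69 with 1 of the 8 arrays left out in turn. Rbp2 fell by 0.58 (difference -0.58 ± 0.12, adjusted p = 0.0149), with levels of 6.66 to 7.03 against 7.09 to 7.56. It was the 1 gene of the 7 that was called, where 0.669% of all genes fell and 2.13% rose. Rbp2 was at -0.62 with an adjusted p of 0.0105 without the 3 arrays that stood apart. On the dimmer probe set of Rbp2 the difference was -0.20, and probiotic colitis (5.27 to 5.76) overlapped with untreated colitis (5.54 to 5.87). Leaving out a single array ended the Rbp2 call for untreated colitis mouse 6 and probiotic colitis mice 5 and 7 (0.00249 to 0.0693). Scarb1 was higher by 0.30 ± 0.09 in probiotic colitis, without passing the threshold (adjusted p = 0.0633). Bco1 had a difference of 0.00 ± 0.10 (adjusted p = 1), with a 95% interval of -0.20 to 0.20. Dhrs9, without a test, had a difference of -0.15 ± 0.43. Aldh1a1 was at 0.02 ± 0.14 (0.950), Aldh1a3 -0.41 ± 0.25 (0.416), Aldh1a2 0.29 ± 0.24 (0.591) and Stra6 0.40 ± 0.19 (0.267). Beside these values, 6 of 9 macrophage genes rose in probiotic colitis against untreated colitis (median 0.84), 1 of 8 surface colonocyte genes fell (median -0.52) and 0 of 8 pan-epithelial genes were called (median -0.11), and their part in the differences of Isx and Rbp2 was not tested.

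In probiotic healthy against untreated healthy mice, 0 of the 7 tested genes were called by limma (adjusted p of 0.607 to 0.957), and 0 were under an unadjusted p of 0.05. Over all genes 0% were called, and 1511 of 16739 lay under an unadjusted p of 0.05. Over all 9 genes the differences ran from -0.31 (Isx, ± 0.24) to 0.29 (Aldh1a2, ± 0.24). Whether the probiotic acted differently in colitis than in health was tested by limma as the difference of the 2 differences. Here 0 of the 7 tested genes were called (2 under an unadjusted p of 0.05, Scarb1 and Rbp2). The same test called 0% of all genes, and 1446 of 16739 lay under an unadjusted p of 0.05. For Isx the difference of the 2 differences, which is not tested, was -0.64 ± 0.34.

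Within groups, Isx and Dhrs9 moved together from mouse to mouse. Each mouse was expressed as its deviation from its group mean, which removes the group differences that chose the genes, and Isx was set against each of the other 8 genes over 20 mice. Dhrs9 correlated with Isx at Pearson r = 0.688 (two-sided permutation within groups, p = 0.00029, adjusted over 8 relations 0.00232) and Spearman rho = 0.693 (p = 0.00301, adjusted 0.0174). Rbp2 ran the opposite way, at r = -0.65 (permutation p = 0.00796, adjusted 0.0318) and rho = -0.678 (p = 0.00436, adjusted 0.0174). Bco1 gave r = -0.23 (permutation p = 0.309, adjusted 0.412) and rho = -0.068 (permutation p = 0.796, adjusted 0.87), and Scarb1 r = 0.432 (permutation p = 0.147, adjusted 0.235) and rho = 0.346 (permutation p = 0.222, adjusted 0.359). Neither relation was called. The relation with Aldh1a1 was at r = -0.608 (permutation p = 0.077, adjusted 0.154) and rho = -0.445 (permutation p = 0.0971, adjusted 0.259), and that with Aldh1a3 at r = 0.488 (permutation p = 0.076, adjusted 0.154) and rho = 0.314 (permutation p = 0.224, adjusted 0.359). Aldh1a2 gave r = 0.059 (permutation p = 0.839, adjusted 0.857) and rho = -0.045 (permutation p = 0.87, adjusted 0.87), and Stra6 r = 0.063 (permutation p = 0.857, adjusted 0.857) and rho = -0.248 (permutation p = 0.379, adjusted 0.506), so no direction is read from them.

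The relation with Dhrs9 held within the 12 colitis mice (r = 0.85, permutation p = 0.00448, adjusted 0.0358) and was at 0.681 within the 8 healthy mice (permutation p = 0.039, adjusted 0.113). Without the 2 mice farthest from the median Isx deviation, probiotic colitis mouse 8 and cyclosporine colitis mouse 7, it was 0.604 (permutation p = 0.0056, adjusted 0.0448). Without the 3 arrays that stood apart it was 0.758 (permutation p = 0.017, adjusted 0.136), so the call over all 8 relations was lost although r was higher. Rbp2 gave -0.627 in colitis (permutation p = 0.0448, adjusted 0.179) and -0.757 in healthy mice (permutation p = 0.0422, adjusted 0.113). Without the 2 farthest mice it was -0.531 (permutation p = 0.0727, adjusted 0.291), so the relation was no longer called. It was also no longer called without any of 8 single arrays, those of untreated healthy mouse 7, untreated colitis mice 5 and 7, probiotic healthy mice 5 and 6, probiotic colitis mice 5 and 8 and cyclosporine colitis mouse 10. Scarb1 was at 0.78 within the 8 healthy mice (permutation p = 0.0383, adjusted 0.113), which was not called. Aldh1a1 turned sign without the 2 farthest mice, to 0.122. Deviations of mice on a shared array scale and in tissue of varying makeup are common to all genes of a mouse. Their part was not tested. How many of all tested genes reach such values within groups is not given. The genes named below as most like or most opposite to Isx were picked with group differences left in. Over 20 mice the deviations of those most alike correlated with those of Isx at 0.402 (Sptssb) to 0.739 (Nus1). For the most opposite genes the range was -0.764 (Tbc1d19) to -0.693 (Npy1r). Whether the relations with Dhrs9 and Rbp2 are particular to vitamin A genes was not tested.

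**Figure D3:**
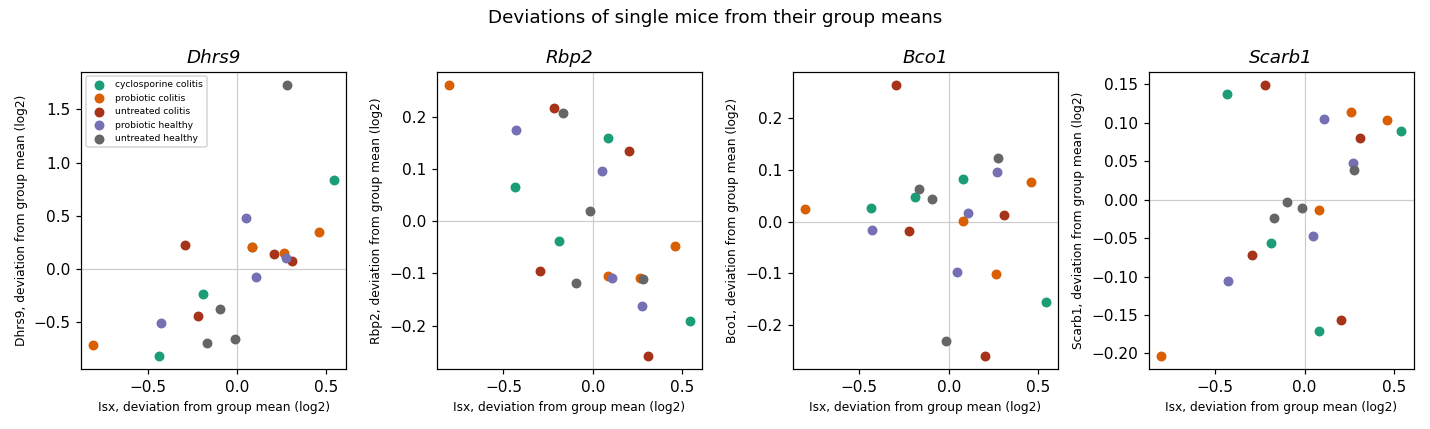
Deviation of each of 20 mice from its group mean (log2) for Isx on the horizontal axis and for Dhrs9, Rbp2, Bco1 and Scarb1 on the vertical axes, coloured by group. Mice with more Isx than their group had more Dhrs9 (r = 0.688) and less Rbp2 (r = -0.65), and r was -0.23 for Bco1 and 0.432 for Scarb1.

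Over the 20 arrays as a whole, with the group differences left in, Aldh1a3 was the most like Isx of the 9 genes (r = 0.915) and Dhrs9 the next (0.857), and Aldh1a1 was the most opposite (-0.893), followed by Bco1 (-0.786) and Rbp2 (-0.747). Scarb1 (0.038), Stra6 (0.015) and Aldh1a2 (0.231) were near 0 or low. These values describe patterns that the groups share and carry no test. Among all tested genes the 5 most like Isx were Nus1 (0.957), Lpo (0.951), Sptssb (0.943), Nars (0.937) and Car12 (0.934). Lpo encodes lactoperoxidase, a secreted antibacterial enzyme, and averaged 7.73 ± 0.22 in cyclosporine colitis, 8.39 ± 0.19 in probiotic colitis, 8.83 ± 0.16 in untreated colitis, 7.18 ± 0.11 in probiotic healthy and 7.37 ± 0.11 in untreated healthy mice (SD, n = 4 each). The 5 most opposite were Npy1r (-0.962), a receptor of neuropeptide Y, Tbc1d19 (-0.960), Sike1 (-0.959), Sdc2 (-0.949), a syndecan, and Tns4 (-0.945). For Dhrs9 the 5 most alike were Pla2g2a (0.962), Fam3b (0.956), Clca4b (0.952), Tnfaip8 (0.944) and Dnajc10 (0.941). The 5 most opposite were Slc20a1 (-0.949), a phosphate transporter, Sun2 (-0.944), Ank (-0.940), Wdtc1 (-0.940) and Tpra1 (-0.939). Pla2g2a averaged 7.89 ± 0.60 in cyclosporine colitis, 8.62 ± 0.38 in probiotic colitis, 8.90 ± 0.58 in untreated colitis, 6.20 ± 0.47 in probiotic healthy and 6.73 ± 1.12 in untreated healthy mice (SD, n = 4 each).

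Around these 9 genes, 68 others of retinoid handling and response were listed, of which 53 were tested, 10 were too dim (Cyp26a1, a retinoic acid hydroxylase, among them) and 5 had no probe set with a single gene symbol and values. In untreated colitis against untreated healthy mice, 8 rose, 13 fell and 32 were not called, with a median difference of -0.07 against -0.03 over all genes, of which 26.1% were called. Rdh10, a retinol dehydrogenase that makes retinal, rose by 0.99 ± 0.12 (adjusted p = 1.24e-05), and Abca1, a lipid exporter, by 0.99 ± 0.18 (adjusted p = 0.000524). Cyp2s1, a cytochrome P450 that can oxidise retinoic acid, fell by 1.29 (log2 difference -1.29 ± 0.21, adjusted p = 0.000221). Rdh5, another retinol dehydrogenase, was at -0.55 ± 0.09 (adjusted p = 0.000242) and Ttr, the plasma partner of the retinol carrier, at -0.83 ± 0.14 (adjusted p = 0.000407), both lower. Itgb7, a subunit of the gut homing integrin that retinoic acid induces on lymphocytes, rose by 0.62 ± 0.13 (adjusted p = 0.00139). Of 17 tested genes that interconvert retinol and retinal, 1 rose and 5 fell, and of 6 tested retinoic acid induced genes, 5 rose and 0 fell (Tgm2, Rarres1, Ccr9, Itga4 and Itgb7, of which Ccr9, Itga4 and Itgb7 are known from leukocytes). Rarres1 averaged 4.86 in untreated healthy and 5.23 in untreated colitis mice, both below the level of 5.299 used to leave out dim genes. Ccr9 averaged 5.33 and 5.58 in these groups, little above that level. The neutrophil markers given above and 3 of 9 macrophage markers (median 0.50) rose in the same comparison, and their part was not tested.

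In probiotic colitis against probiotic healthy mice, 8 of the 53 rose and 17 fell, where 29.7% of all genes were called (13.6% up and 16.1% down), with a median of -0.04 over the list and -0.04 over all genes. Itgb7 rose by 1.16 ± 0.13 (adjusted p = 3.43e-06), its partner Itga4 by 1.51 ± 0.19 (adjusted p = 9.82e-06) and Rdh10 by 0.91 ± 0.12 (adjusted p = 1.28e-05). Bco2, which splits carotenoids off centre, fell (-1.26 ± 0.16, adjusted p = 1.54e-05), and Rdh5 (-0.61 ± 0.09, adjusted p = 4.81e-05) and Cyp2s1 (-1.40 ± 0.21, adjusted p = 5.50e-05) were lower too. Here 6 of 9 macrophage genes rose as well (median 1.12), and their part was not tested.

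In cyclosporine colitis against untreated colitis, 6 of the 53 rose and 2 fell, with a median of 0.01 against -0.01 over all genes, of which 13.2% were called. Rdh10 fell (-0.78 ± 0.12, adjusted p = 0.000317), as did Tgm2, a transglutaminase induced by retinoic acid (-0.88 ± 0.25, adjusted p = 0.0264). Cyp2s1 rose by 1.17 ± 0.21 (adjusted p = 0.00142), the scavenger receptor Cd36 by 1.26 ± 0.29 (adjusted p = 0.00707), Ttr by 0.59 ± 0.14 (adjusted p = 0.0116) and Aox1, an aldehyde oxidase, by 0.38 ± 0.08 (adjusted p = 0.00591). Without the 3 arrays that stood apart the count was 18 (10 up and 8 down), and without untreated colitis mouse 6 alone it was 13 (6 up and 7 down). Without untreated colitis mouse 5 or 7 it was 5 (4 up and 1 down). The share of all genes called in these smaller fits is not given, so these counts cannot be set against the 13.2%.

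In probiotic colitis against untreated colitis, 3 of the 53 rose and 0 fell, where 2.8% of all genes were called, and the 3 are known from leukocytes: Itgb7 by 0.65 ± 0.13 (adjusted p = 0.0123), Ccr9 by 0.36 ± 0.08 (adjusted p = 0.0266) and Itga4 by 0.70 ± 0.19 (adjusted p = 0.0475). This count ran from 0, without untreated colitis mouse 6 or probiotic colitis mouse 5, to 7, without untreated colitis mouse 5, and was 1 without probiotic colitis mouse 3 or 7 and 6 without probiotic colitis mouse 8. The share of all genes called in those fits is not given, so these counts cannot be set against the 2.8%. In probiotic healthy against untreated healthy mice, 0 of the 53 were called by limma (4 under an unadjusted p of 0.05). Of 4 tested regulators listed for intestinal Isx, 1 fell in untreated colitis against untreated healthy mice, 2 fell in probiotic colitis against probiotic healthy mice and 0 were called in cyclosporine colitis against untreated colitis. Over all tested genes 26.1%, 29.7% and 13.2% were called in these comparisons, in that order, so nothing is read from these counts. The nuclear receptor Hnf4a, named after its values were seen, fell in the first (-0.25 ± 0.08, adjusted p = 0.0256) and the second (-0.48 ± 0.08, adjusted p = 0.000161). The caudal-type factor Cdx1 fell in probiotic colitis against probiotic healthy mice (-0.37 ± 0.10, adjusted p = 0.00566) and was at -0.21 ± 0.10 (adjusted p = 0.124) in untreated colitis against untreated healthy mice and -0.17 ± 0.10 (adjusted p = 0.265) in cyclosporine colitis against untreated colitis. Cdx2 was not called in any of these comparisons, with differences of -0.01, 0.02 and 0.08 for untreated colitis, probiotic colitis and cyclosporine colitis against the groups just named.

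**Figure D4:**
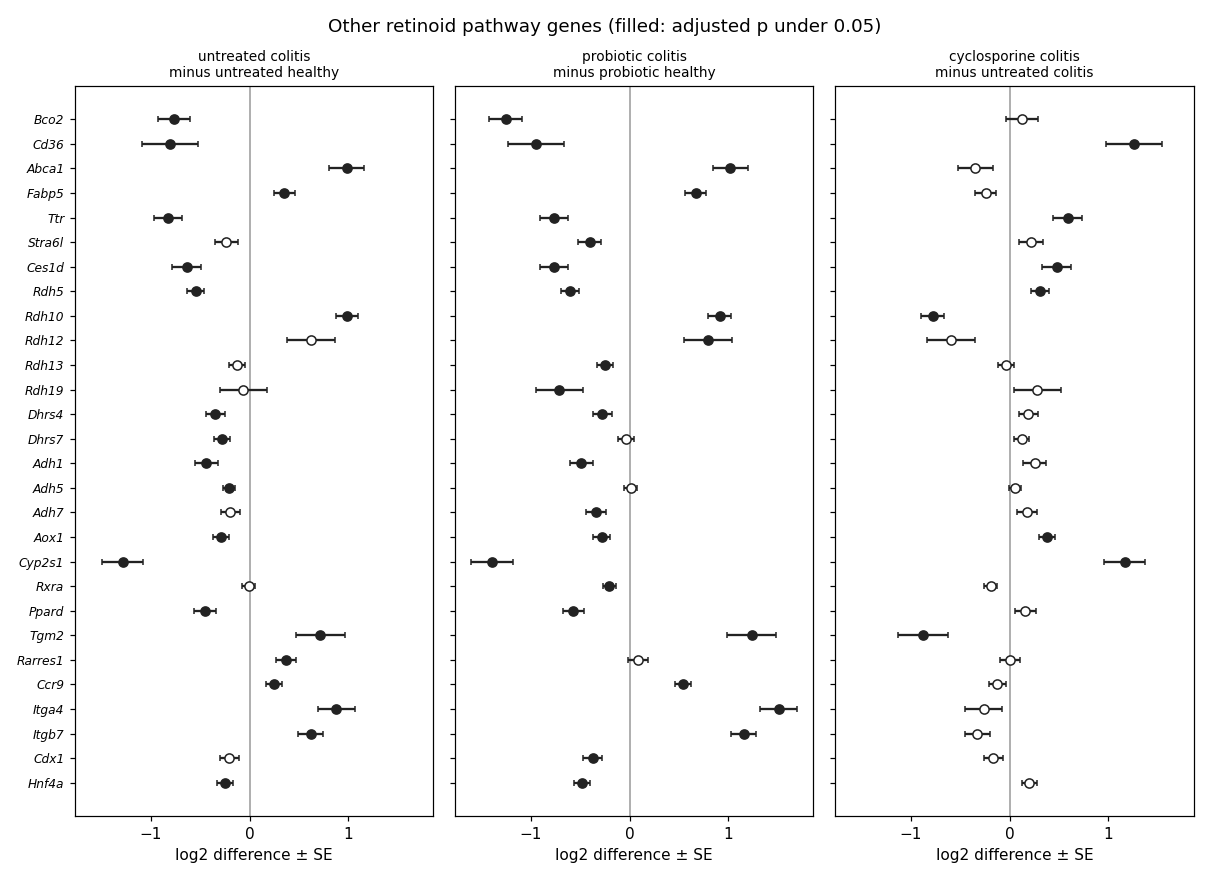
Log2 differences with standard errors (n = 4 mice per group) of the 28 other retinoid pathway genes called in at least 1 of 3 comparisons: untreated colitis minus untreated healthy, probiotic colitis minus probiotic healthy, and cyclosporine colitis minus untreated colitis. Filled points passed an adjusted p of 0.05. Rdh10 was at 0.99, 0.91 and -0.78 and Cyp2s1 at -1.29, -1.40 and 1.17 in the 3 panels.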

How the data were processed

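Biotin-labelled DNA made from the total RNA of the middle colon was read on an Affymetrix array for each mouse, per the labels' protocols. The deposited values are log2 expression per probe set, made by the authors with RMA per the submitters' processing notes (version not given in the sources used here). Of 41801 probe sets, 29195 had values, and 22360 of these had 1 gene symbol, 1013 several and 5822 none. The series states biological replicates, and groups come from the array titles.

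Values were used as deposited. Where a gene had several probe sets, the brightest on average was used. Genes were tested if above 5.299, the 25th percentile of the named probe sets' values, on at least 4 arrays (16739 genes). Groups were compared with limma 3.58.1 in R 4.3.3 in a fit of all 20 arrays with 5 group means (15 residual degrees of freedom), Benjamini-Hochberg adjustment over all tested genes and a threshold of 0.05. Standard errors and 95% intervals come from this fit, and the number of arrays limits precision. Isx and Dhrs9 are given without a test in every comparison, although tests of them for the probiotic had been planned, since the untreated arrays helped to choose them. Correlations used 100000 permutations within groups. The code was tested on simulated data.

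The members and the gene lists were chosen with earlier results of these data known. Named were the 9 members, up to 6 other pathway genes per comparison with the smallest p among those called, Cdx1 and Cdx2, up to 2 defining markers of a list, and the 5 genes with the highest and the 5 with the lowest correlation with Isx and with Dhrs9, apart from predicted genes and receptor segments. The other pathway genes called in each class were named after their values were seen. Of 105 marker genes in 14 lists, 97 were tested, and 2 genes per list at most are named. Promoter windows and names are RefSeq's, for GRCm38.p6. Alternatives are given in the closing section.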

Additional observations from a re-analysis of the deposited data

Results flagged for a closer look

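In 3 of 45 combinations of gene and group, 1 mouse lay farther from the other 3 than Dixon's 95% limit for 4 values, where chance gives about 1 in 20. Dhrs9 stood at 8.48 in untreated healthy mouse 2, against 6.06 to 6.39 in the other 3 mice of its group, and this array also stood apart over all genes. Rbp2 stood at 7.03 in probiotic colitis mouse 8, against 6.66 to 6.72 in the others, and the same mouse had the lowest Isx of its group (7.06) and a mean of 6.80 over 6 neutrophil markers, against 9.28 to 9.75 in the other 3. Stra6 stood at 6.62 in probiotic healthy mouse 7, against 6.91 to 6.95 in the others.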

How the results depend on the processing

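Directions and calls were recomputed with no filter and with a stricter filter on dim genes, the mean of a gene's probe sets, another quantile normalization, arrays centred on their median, array weights, eBayes with trend and robust settings, a fit of the compared groups alone, the replicate block, and each array left out. A fit without the 3 arrays that stand apart was added after seeing the data. With no filter, and with trend and robust settings, all 59 results of the fit kept their direction and their side of the threshold. The stricter filter removed Bco1, which has no value there. The sources used here do not say whether same-numbered mice of different groups shared a cage or batch. Their deviations had a median correlation of 0.022 (-0.185 to 0.433, 5 of 20 pairs over 0.1). For differently numbered mice it was -0.010 (-0.454 to 0.507, 23 of 140 pairs over 0.1). These ranges overlap widely, so the check cannot decide whether the numbers pair the mice. Members called in probiotic colitis against untreated colitis numbered 1 of 7, against 2 with the stricter filter, 2 with array weights, 0 in the compared groups alone, 1 under the replicate block and 0 to 2 with 1 array left out. The other pathway genes called there numbered 8 with array weights, 0 in the compared groups alone, 1 under the replicate block and 0 to 7 with 1 array left out, and under cyclosporine 18 without the 3 arrays and 5 to 13 with 1 left out. The shares of all genes called under these alternatives are not given, so the counts have no background beside them. Isx, without a test, differed in probiotic colitis against untreated colitis by -0.63 under the replicate block, -0.62 without the 3 arrays and -1.11 to -0.69 with 1 array left out. Rbp2 was not called in the compared groups alone (adjusted p = 0.163). Scarb1 passed the threshold there with the stricter filter (0.30, adjusted p = 0.0483) and array weights (0.36, adjusted p = 0.00514), and in probiotic colitis against probiotic healthy mice with array weights (0.21, adjusted p = 0.0209), where Stra6 did so in the compared groups alone (0.34, adjusted p = 0.0401). With the mean of its probe sets Rbp2 was -0.58 in untreated colitis against untreated healthy mice and 0.31 in cyclosporine colitis against untreated colitis. Differences with no call or no test that turned sign include the following. In probiotic colitis against untreated colitis, Dhrs9 was 0.38 under the replicate block, 0.14 without the 3 arrays and -0.29 to 0.0903 with 1 array left out, and Aldh1a1 was -0.0024 after quantile normalization, -0.0011 after centring, -0.0531 with array weights, -0.22 under the replicate block, -0.11 without the 3 arrays and -0.16 to 0.13 with 1 left out. In probiotic healthy against untreated healthy mice Dhrs9 was 0.19 with array weights, 0.59 under the replicate block, 0.47 without the 3 arrays and -0.34 to 0.47 with 1 left out. Aldh1a2 in probiotic colitis against probiotic healthy mice was -0.0035 to 0.37 with 1 left out. Cyclosporine colitis against untreated healthy mice, with 1 left out, gave -0.02 to 0.31 for Isx, -0.09 to 0.03 for Aldh1a2 and -0.30 to 0.16 for Stra6. Against untreated colitis it gave -0.12 to 0.34 for Stra6 and -0.06 to 0.05 for Scarb1. Correlations with Isx by Spearman's rho were -0.045 for Aldh1a2 and -0.248 for Stra6. In healthy mice they were 0.277 for Bco1, -0.054 for Aldh1a2 and -0.359 for Stra6, with Dhrs9 at 0.681 and Rbp2 at -0.757 no longer called, and Rbp2 was -0.627 in colitis mice. Without the 2 farthest arrays Aldh1a1 was 0.122, Aldh1a2 -0.101 and Rbp2 -0.531, and without the 3 arrays Dhrs9 was 0.758 and Rbp2 -0.592, both uncalled. With 1 array left out r was 0.632 to 0.816 for Dhrs9, -0.717 to -0.528 for Rbp2 (8 of 20 uncalled), -0.153 to 0.173 for Aldh1a2 and -0.496 to 0.16 for Stra6. The cause was not tested in any of these. With 4 mice a group, differences near the standard errors given cannot be told from 0.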

Other observations

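Markers of other cell types differed between the same groups as follows, with the median of untreated colitis minus untreated healthy given before that of cyclosporine colitis minus untreated colitis. Smooth muscle genes had medians of -0.53 (5 of 6 fell) and 0.41 (4 of 6 rose), and fibroblast genes 0.41 (4 of 7 rose) and -0.20 (1 of 7 fell). Crypt stem and transit genes had -0.37 (1 rose and 4 fell of 5) and 0.26 (1 of 5 fell), a median and a call that differ in sign. Goblet cell genes had 0.16 (3 of 7 rose) and -0.10 (2 of 7 fell). Dendritic cell genes had 0.16 (3 of 8 rose) and -0.15 (0 called), mesothelium genes 0.25 (1 of 6 rose) and 0.02 (0 called), and endothelium genes 0.20 (1 of 6 rose) and -0.0016 (1 of 6 rose). Proximal small intestine genes had -0.07 (1 of 9 fell) and -0.08 (0 called), adipocyte genes -0.28 and 0.48 (0 of 5 called in either), and macrophage genes under cyclosporine 0.10 (0 of 9 called). These counts are calls by limma at an adjusted p under 0.05. At that threshold 26.1% of all genes were called in untreated colitis against untreated healthy mice and 13.2% in cyclosporine colitis against untreated colitis. At the looser threshold of an unadjusted p under 0.05, 6229 of all 16739 genes passed in the first comparison and 4681 in the second.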
